A study of Saccharomyces cerevisiae with 4 samples.

Results

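The arms of chromosome XV were taken as the 50 bp bins with midpoints from 346725 to 1071175 (right arm) and from 20025 to 306475 (left arm) in genome release R64, which leaves out 20 kb at each chromosome end and the surroundings of the centromere. They were chosen by position alone and hold 20220 of the 243150 bins of the profile, 14490 on the right and 5730 on the left arm. On these bins 35 peaks of BrdU signal were found, 26 on the right and 9 on the left arm, out of 340 on the arms of all 16 nuclear chromosomes. BrdU-IP-Seq was carried out on 4 libraries, 2 from *rif1Δ* and 2 from *WT* cells. All cells were *MATa* of W303 descent with *bar1Δ::hisG*, the marker alleles *can1-100*, *trp1-1*, *his3-11,15*, *ura3-1* and *ade2-1*, and a *LEU2::BrdU-Inc* cassette that lets yeast take up BrdU, and *rif1Δ* cells carried KanMx in place of *RIF1*. Cells held in G1 for 4 h at 23 °C with 7.5 nM α-factor were released with pronase (200 µg/mL) and grown for 45 min in hydroxyurea (HU, 0.2 M) and BrdU (400 µg/mL). Each strain is represented by 1 averaged and smoothed profile, so no difference given here has a replicate check or a test, and the reads behind a bin are unknown.

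Replication of a yeast chromosome starts at origins, which contain an autonomously replicating sequence (ARS) bound by the origin recognition complex. Early origins fire before HU exhausts the deoxyribonucleotides, whereas the intra-S checkpoint holds back those that have not fired. A peak of BrdU at an origin thus marks one that fired and the short tract copied around it. Rif1, a partner of the telomere protein Rap1, delays firing, and is known to bring a phosphatase to chromatin that counters the kinase DDK. Within *RIF1* itself (chromosome II, 751356 to 757106) the mean signal was 0.433 in *rif1Δ* and 3.09 in *WT* cells, beside flank medians of 3.88 in *rif1Δ* and 3.12 in *WT* cells.

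A peak was a summit of at least 20 in either strain that stood out from its surroundings by at least 50% of its height, and its height in a strain was the highest bin within 500 bp of the summit. Changes between strains are log2((*rif1Δ* + 1)/(*WT* + 1)) of the mean signal within 500 bp of the summit, a scale that understates changes of low peaks. Distances run from 326600, the middle of the region left out around the centromere, which lies between the innermost genes of the arms (326130 to 326832). Across the arms the mean signal was 11.9 in *rif1Δ* and 11.6 in *WT* cells, and bins more than 2.5 kb from a summit had a median of 3.25 in *rif1Δ* and 3.12 in *WT* cells. Bins within 2.5 kb of the 35 summits, 17.1% of the arms, held 71.3% of the arm signal in *rif1Δ* and 68.7% in *WT* cells.

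Peaks were present in *rif1Δ* cells alone at 10 of the 35 positions, in both strains at 22 and in *WT* cells alone at 3. The 10 *rif1Δ*-only peaks all lay on the right arm, where they were 38.5% of the 26 peaks, against 0 of 9 on the left. With summits found on the mean of both strains, 5 peaks were *rif1Δ*-only. Over all nuclear arms 34.7% of peaks were *rif1Δ*-only, 54.1% were present in both strains and 11.2% in *WT* only. The log2 ratio was above 1 at 12 peaks on the arms of chromosome XV, 10 on the right and 2 on the left, a share of 34.3% against 40.6% over all nuclear arms. It was below -1 at 1 peak, against 7.65% over all arms. The median was 0.36 over the 35 peaks (0.0666 with a window of 2500 bp, 0.62 over the 37 peaks found with strains set to equal nuclear mean signal) and 0.38 over the 305 peaks of the 15 other chromosomes. The share with a log2 ratio above 1 on chromosome XV was thus near that of the other arms. Its own arms differed in value, with a median log2 ratio of 0.65 on the right and 0.0902 on the left. Such a difference was not particular to chromosome XV. The medians were 1.95 on the right and 0.012 on the left arm of chromosome II, but 0.0475 and 0.23 on chromosome X. On chromosome XIII, 31.6% of right-arm and 0% of left-arm peaks were *rif1Δ*-only.

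**Figure D1:**
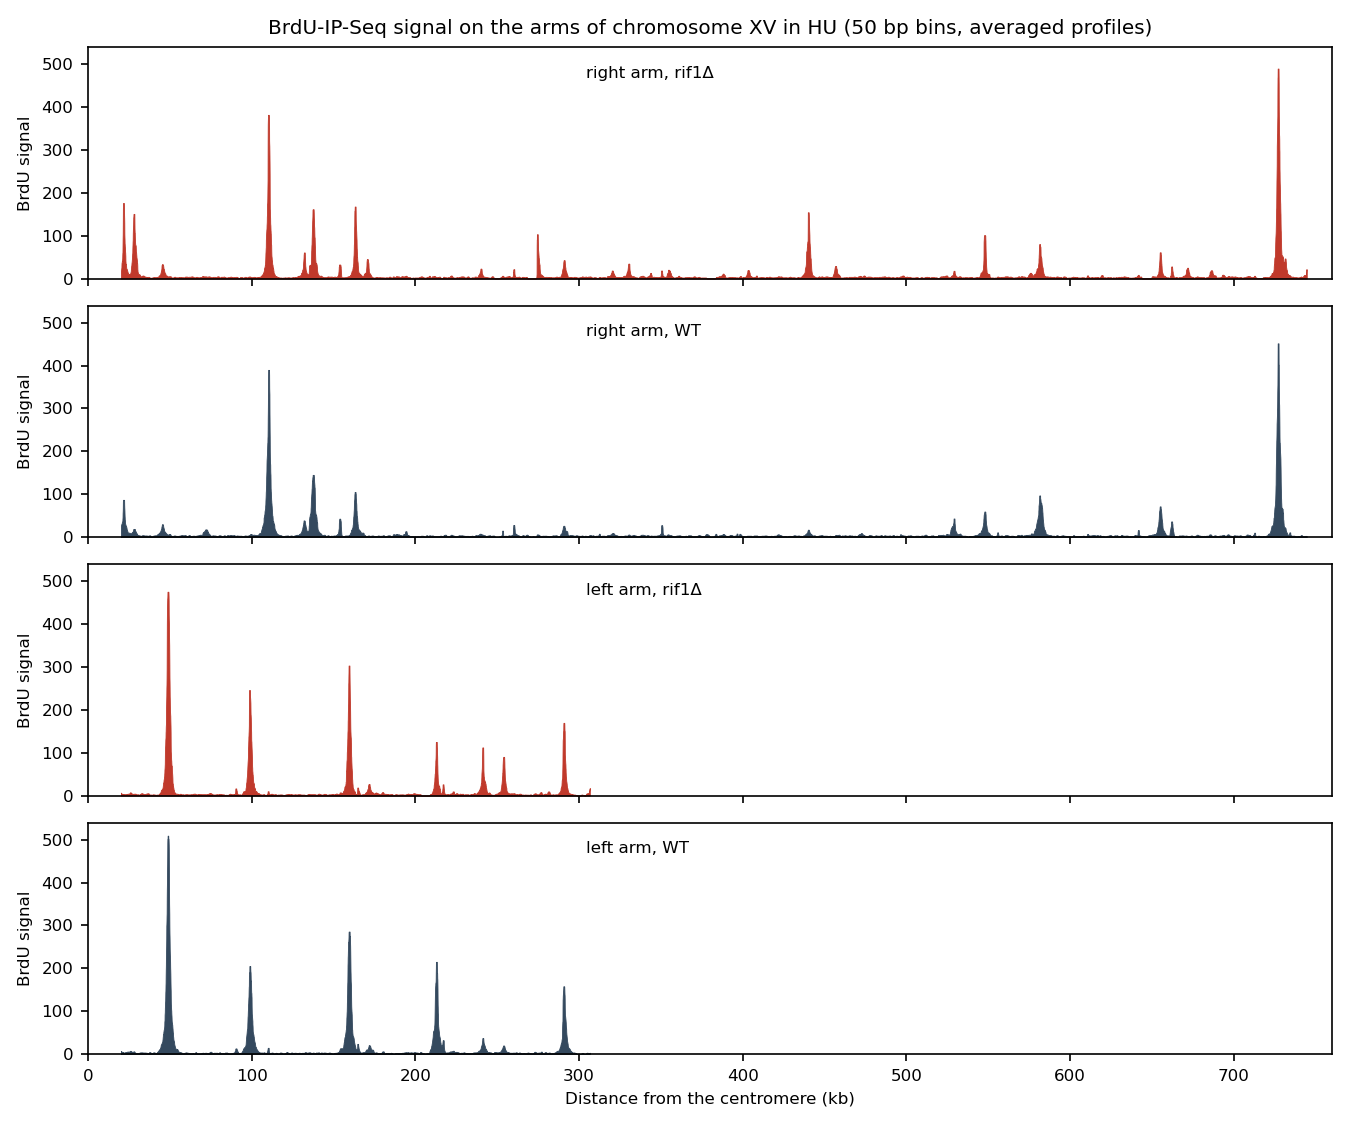
BrdU signal (vertical axis, averaged coverage per 50 bp bin) against distance from the centromere (kb) on the right arm (upper panels) and the left arm (lower panels), *rif1Δ* in red and *WT* in dark blue. The right arm has 10 peaks that reach 20 in *rif1Δ* cells alone and the left arm has none, while the highest peaks (ARS1529.5, ARS1513.5 and ARS1511) stand in both strains.

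The right arm was followed outward from the centromere. The innermost peaks formed a close pair. The first (summit at 348275, between *TIR2*, a cell wall mannoprotein gene, and *AUS1*, a sterol transporter gene) had a height of 176 in *rif1Δ* and 86.8 in *WT* cells, with a log2 ratio of 0.96. Only 6.40 kb farther out, a peak at 354675 had a height of 151 in *rif1Δ* and 19.0 in *WT* cells, a log2 ratio of 2.84. This *rif1Δ*-only peak was 28.1 kb from the centromere, nearer to it than any other peak with a log2 ratio above 1 on the chromosome arms, and its *WT* height fell just short of the minimum. The signal between the pair dropped to 10.5 in *rif1Δ* and 8.50 in *WT* cells, so the peaks were resolved in both strains. Both summits lie in origins of the study's list that carry no ARS name, as does the next peak at 372025, which had a height of 33.8 in *rif1Δ* and 29.9 in *WT* cells.

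ARS1513.5 (436732 to 436966, beside *ASE1*, which encodes a microtubule bundling protein of the spindle midzone) was the highest peak of the inner right arm. Its height was 382 in *rif1Δ* and 389.9 in *WT* cells, and its log2 ratio of -0.0030 was the nearest to 0 of all 35. The peaks at 458775 and 464125, which lie 5.35 kb apart, had heights of 60.75 and 162 in *rif1Δ* cells, against 38.75 and 145 in *WT* cells. *GYP1*, a GTPase-activating protein gene, and *NRT1*, a nicotinamide riboside transporter gene, flank the weaker of them. The trough between them was 9.62 in *rif1Δ* and 13.2 in *WT* cells, a difference in the opposite direction to that of both summits.

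Neighbors between 154 and 171 kb from the centromere behaved in different ways. A peak at 480425, between *WHI5*, which encodes an inhibitor of the G1/S transition, and *LPX1*, is not in the origin list and had a height of 32.6 in *rif1Δ* and 42.9 in *WT* cells. ARS1514 (489645 to 490129, between *YVC1*, a vacuolar channel gene, and *VPS21*, a Rab GTPase gene) had 168 in *rif1Δ* and 105 in *WT* cells, with a log2 ratio of 0.63. ARS1515.5 (497144 to 497603, between *ECM3* and *CMR2*), 7.40 kb from ARS1514, had 45.5 in *rif1Δ* and 3.50 in *WT* cells, with a log2 ratio of 3.50. Its *WT* height was thus near the median between peaks, whereas its neighbor stood far above it in both strains.

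Farther out, high *WT* peaks became rare. ARS1516 (566409 to 566643) lies beside *ADE2*, the purine synthesis gene whose *ade2-1* allele marks these strains, and had a height of 23.1 in *rif1Δ* and 7.75 in *WT* cells. ARS1517 (600885 to 600960, next to *THI80*, the thiamine pyrophosphokinase gene) gave the largest log2 ratio of the chromosome arms, 3.68, with a height of 103 in *rif1Δ* and 6.12 in *WT* cells, 16.9 times as high. Between these, a peak at 586725 (between *RUP1* and *SFL1*, a transcriptional repressor gene), absent from the list, had 21.75 in *rif1Δ* and 28.2 in *WT* cells. An unnamed listed origin at 617425, next to *RPB2*, which encodes a core subunit of RNA polymerase II, had 42.9 in *rif1Δ* and 26.2 in *WT* cells.

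The signal around ARS1517 was one-sided in *rif1Δ* cells. At 1 kb from the summit the signal was 0.25 on the centromere side and 41.0 on the telomere side in *rif1Δ* cells, against 1.5 and 5.0 in *WT* cells. The centromere side is the retrotransposon reading frame YOR142W-B (595112 to 600380), over which the mean signal was 0.256 in *rif1Δ* and 1.85 in *WT* cells. Runs of at least 2 kb at or below a signal of 1 lay over this and 3 other such frames on the arms in *rif1Δ* cells alone, namely YOL103W-B, YOR192C-B and YOR343W-B. Genome-wide, the mean signal was lower in *rif1Δ* cells over all 25 frames of over 5 kb with such a name, with a median of 0.255 in *rif1Δ* and 2.16 in *WT* cells. Whether these repeats were treated alike in the libraries of both strains was not tested, so the values cannot show whether ARS1517 lacks a tract on its centromere side. Over *HXT11* and over *EFT1*, which have near-identical copies elsewhere in the genome, the signal was at or below 1 in both strains.

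Beyond 306.6 kb, where the left arm has ended, 13 right-arm peaks were found in 438 kb. ARS1519 (656632 to 656876, between *YRM1*, a drug resistance regulator gene, and *DCS2*) had a height of 34.75 in *rif1Δ* and 5.88 in *WT* cells. A peak at 677125 within *LAS17*, the yeast WASP gene of actin assembly, had 18.6 in *rif1Δ* and 27.75 in *WT* cells, and one only 4.10 kb away at 681225, next to *GSP2*, had 20.4 in *rif1Δ* and 6.25 in *WT* cells. Neither is in the origin list, and they changed in opposite directions. ARS1523 (766617 to 766862, between *HER1* and *MCP1*) was the highest *rif1Δ*-only peak, with 154.5 in *rif1Δ* and 17.1 in *WT* cells and a log2 ratio of 2.99. ARS1524 (783344 to 783563, next to *HES1*, an oxysterol-binding protein gene) had 29.2 in *rif1Δ* and 5.0 in *WT* cells. The longest stretch of the chromosome arms without a peak was 179 kb in *WT* cells (677125 to 855675), and ARS1523 and ARS1524 lie inside it. In *rif1Δ* cells the longest was 91.0 kb (783325 to 874325), and ARS1525 lies inside it. Both lengths depend on the minimum of 20, since ARS1523 fell just short of it in *WT* cells (17.1) and ARS1525 in *rif1Δ* cells (18.0).

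The peak at the outer end of the *WT* stretch went the other way. ARS1525 (854735 to 855228) was the only peak on the chromosome with a log2 ratio below -1, at -1.19, with a height of 18.0 in *rif1Δ* and 43.2 in *WT* cells. Its summit at 855675 lay 694 bp from the midpoint of the listed interval, inside *SNF2*, which encodes the ATPase of the SWI/SNF chromatin remodeler. For the 22 peaks matched to an interval of at most 1000 bp, 21 summits lay within 500 bp of the midpoint, with a median offset of 20.5 bp, so that ARS1525 was the exception. ARS1526 (874190 to 874434, next to *TIM18*, of the mitochondrial inner membrane translocase) had 101 in *rif1Δ* and 59.5 in *WT* cells. ARS1528 (908288 to 908537, near *FAA1*, an acyl-CoA synthetase gene) had 80.25 in *rif1Δ* and 97.0 in *WT* cells, and ARS1529 (981454 to 981690, near *REV1*, of translesion synthesis) had 61.1 in *rif1Δ* and 71.5 in *WT* cells. Both were somewhat lower in *rif1Δ* cells, with log2 ratios of -0.27 and -0.26.

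Toward the right end, 1 very high peak stood among low ones. A peak at 988575 within *PUT4*, the proline permease gene, not in the list, had 28.1 in *rif1Δ* and 36.4 in *WT* cells. The unnamed listed origin at 998375, between *TFB6* and *SOG2*, had 25.1 in *rif1Δ* and 3.12 in *WT* cells. ARS1529.5 (1053490 to 1053901, between *RDR1*, a repressor of drug resistance genes, and *FRE3*, a reductase gene of siderophore uptake) reached 489.7 in *rif1Δ* and 452 in *WT* cells, the highest peak of the chromosome arms in *rif1Δ* cells, although it is 727 kb from the centromere. The outermost peak at 1071125, by *FDH1*, the formate dehydrogenase gene, had 21.6 in *rif1Δ* and 2.75 in *WT* cells and lies just inside the limit of the arm. No peak was found outside that limit on the right, while on the left the first one outside, at 19025, had 80.0 in *rif1Δ* and 5.50 in *WT* cells.

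On the left arm every peak reached the minimum in *WT* cells. ARS1511 (277529 to 277778, beside *IFM1*, the mitochondrial translation initiation factor gene) was the highest peak in *WT* cells, with 475 in *rif1Δ* and 509 in *WT* cells. The 5 kb around it held 26.5% of the left-arm signal in *rif1Δ* and 26.1% in *WT* cells. ARS1510.5 (227481 to 228117, between genes of non-coding RNAs) had 246 in *rif1Δ* and 205 in *WT* cells, and ARS1510 (166974 to 167220, between *ATG34* and *ATG19*, which encode receptors of selective autophagy) had 303 in *rif1Δ* and 286 in *WT* cells. The log2 ratios of these peaks were -0.0966 at ARS1511, 0.23 at ARS1510.5 and 0.0166 at ARS1510. A pair of low peaks lay near ARS1510. ARS1509.5 (154972 to 155462, between *MPD2* and *DUF1*) had 26.75 in *rif1Δ* and 20.9 in *WT* cells. An unlisted peak at 161825 had 18.6 in *rif1Δ* and 23.9 in *WT* cells. Its summit lies within YOL085C, whose neighbors are *ADH1*, the main alcohol dehydrogenase gene of fermentation, and *PHM7*.

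The outer left arm held peaks that moved in opposite directions. ARS1509 (113843 to 114084) had a height of 125 in *rif1Δ* and 215 in *WT* cells, a log2 ratio of -0.83, the lowest of the left arm. ARS1508 (85195 to 85444, between *TRM13* and *TRM11*, both of tRNA methylation) had 112 in *rif1Δ* and 37.4 in *WT* cells, a log2 ratio of 1.48. ARS1507 (72636 to 72872, overlapping the end of *GAS4*, a cell wall gene of spore formation) had 90.25 in *rif1Δ* and 20 in *WT* cells, a log2 ratio of 2.10. ARS1507 counts as present in both strains only because its *WT* height equals the minimum. ARS1506.5 (35667 to 35903, beside *ZPS1*), the outermost, had 169.6 in *rif1Δ* and 158 in *WT* cells, a log2 ratio of 0.0902.

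**Figure D2:**
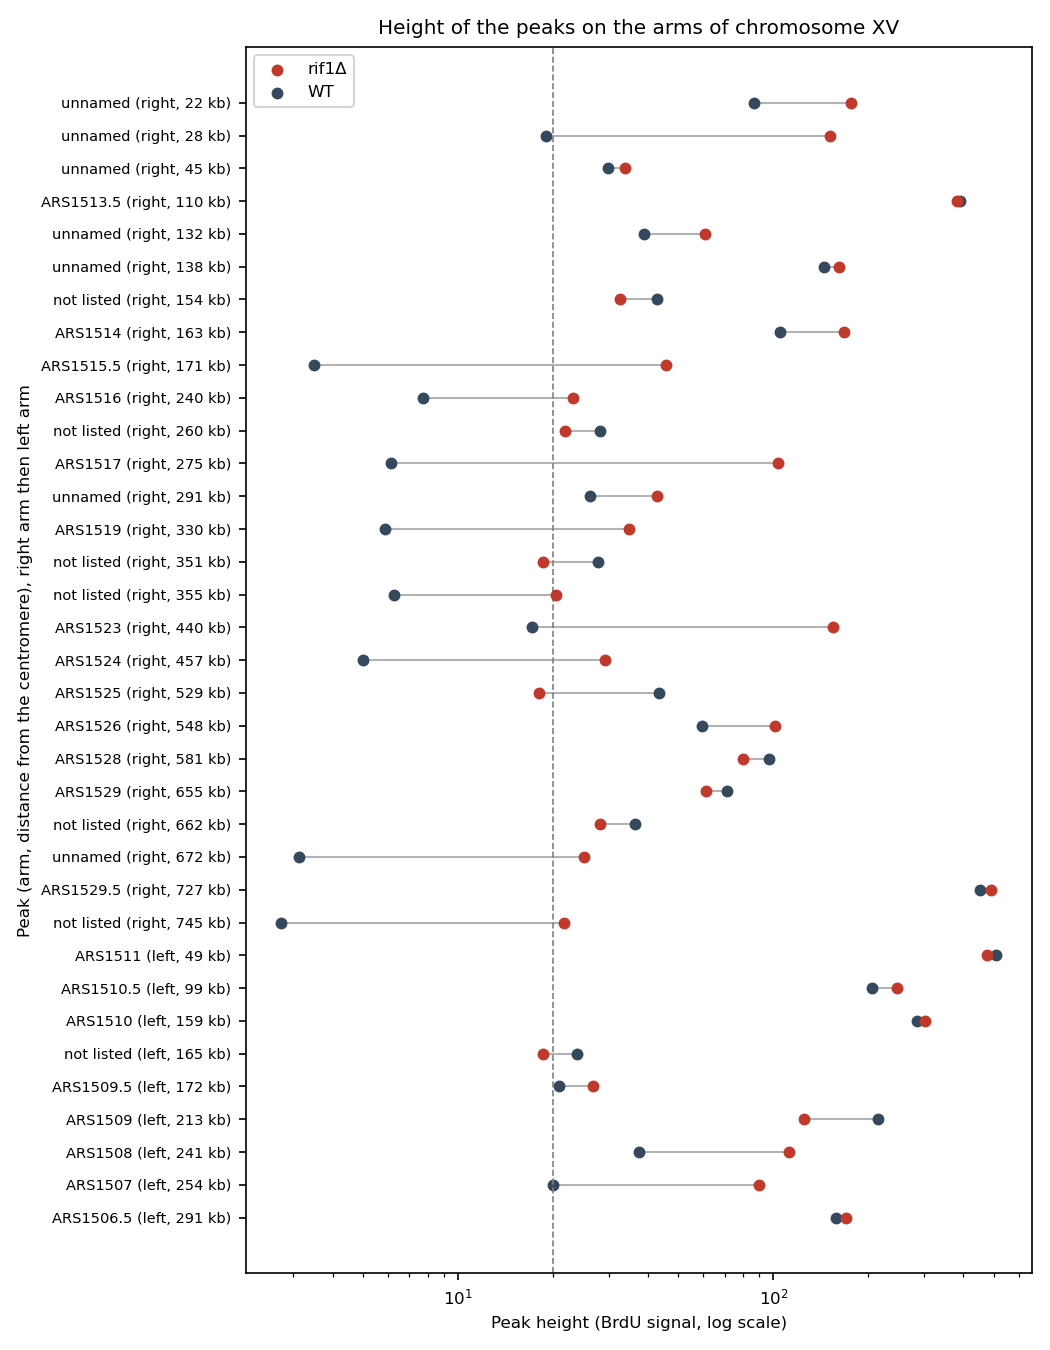
Height of each of the 35 peaks (horizontal axis, BrdU signal on a log scale) in *rif1Δ* (red) and *WT* (dark blue) cells, with the right arm above the left and each arm ordered outward from the centromere; the dashed line is the minimum of 20. At peaks above 100 in *WT* cells the *rif1Δ* height is 0.582 to 1.60 times the *WT* height, with ARS1509 and ARS1514 at these limits, while *WT* points left of the line belong to 10 right-arm peaks with *rif1Δ* heights between 20.4 and 154.5.

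Grouped by height, the 10 peaks below the minimum in *WT* cells had a median height of 32.0 in *rif1Δ* and 6.0 in *WT* cells. The 16 peaks between 20 and 100 in *WT* cells had medians of 38.3 in *rif1Δ* and 36.9 in *WT* cells. The 9 peaks of at least 100 in *WT* cells had medians of 246 in *rif1Δ* and 215 in *WT* cells, with *rif1Δ* heights 0.582 to 1.60 times the *WT* heights. Spearman's rho between *WT* height and log2 ratio was -0.65 over the 35 peaks, a description only, since the ratio contains the *WT* signal. A peak low in *WT* cells is also counted only if it is high in *rif1Δ* cells.

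At equal distance from the centromere the right arm had more peaks, while the median height was greater on the left. Between 20 and 306.6 kb there were 13 peaks on the right (4.54 per 100 kb) and 9 on the left arm (3.14 per 100 kb). Median heights on the right were 60.75 in *rif1Δ* and 29.9 in *WT* cells, and on the left 125 in *rif1Δ* and 158 in *WT* cells. In *WT* cells 9 peaks of the matched right arm and 9 of the left reached the minimum, or 3.14 per 100 kb on each. In *rif1Δ* cells these numbers were 13 on the right and 8 on the left. The median log2 ratio was 0.63 on the matched right arm, with 4 of 13 above 1, and 0.0902 on the left, with 2 of 9 above 1. Beyond the matched distance it was 0.77, with 6 of 13 above 1. These are peaks of the same averaged profiles, which are not replicates, so the differences between arms could not be tested. With a height minimum of 40 the median beyond the matched distance changed sign to -0.063, and with equal nuclear mean signal it was 1.63. With a minimum of 40, 2 left-arm peaks (ARS1507 and ARS1508) counted as *rif1Δ*-only. With a window of 2500 bp the left-arm median was -0.11.

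There were 6 pairs of a right-arm and a left-arm peak whose distances from the centromere differed by at most 5 kb, a limit chosen after the values were seen. At 45.4 kb on the right and 48.9 kb on the left, the peak at 372025 and ARS1511 had log2 ratios of 0.17 and -0.0966 and heights in *rif1Δ* cells of 33.8 and 475. ARS1514, at 163 kb on the right, had a log2 ratio of 0.63, and its counterparts on the left were ARS1510 at 159 kb with 0.0166 and the unlisted peak at 161825, at 165 kb, with -0.39. At 171 kb on the right and 172 kb on the left, ARS1515.5 had a log2 ratio of 3.50 and ARS1509.5 one of 0.36. ARS1516 at 240.1 kb on the right and ARS1508 at 241 kb on the left had log2 ratios of 1.45 and 1.48, yet heights in *rif1Δ* cells of 23.1 and 112. At 291 kb, the unnamed origin by *RPB2* on the right had a log2 ratio of 0.67 and ARS1506.5 on the left 0.0902. The ratio was higher on the right in 5 of the 6 pairs, by 0.27 to 3.14, and the difference was -0.037 for ARS1516. ARS1514 enters 2 of the pairs. Just past the limit of 5 kb, ARS1515.5 (171 kb, 3.50) was above the unlisted left-arm peak at 161825 (165 kb, -0.39). The right-arm peak at 480425 (154 kb, -0.35) was below ARS1510 (159 kb, 0.0166). The right-arm peak at 586725 (260 kb, -0.43) was below ARS1507 (254 kb, 2.10). The count of 5 of 6 thus depends on the limit.

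Split into steps, the outward change on the right arm was uneven. From 20 to 120 kb the median log2 ratio was 0.56 on the right (4 peaks) and 0.065 on the left (2 peaks). From 120 to 220 kb it was 0.57 on the right (5 peaks) and -0.19 on the left (4 peaks), and from 220 to 306.6 kb it was 1.06 on the right (4 peaks) and 1.48 on the left (3 peaks). With 2 to 5 peaks a step, any one of them can set the median. Over the whole right arm Spearman's rho between distance and log2 ratio was -0.056 and Pearson's r was -0.045 (26 peaks), and without the 2 peaks farthest from the median distance rho was -0.11. On the left arm rho was 0.40 and r 0.39 (9 peaks), and over the 305 peaks of the other chromosomes rho was 0.22. The points share 2 averaged and smoothed profiles, so these values are given as descriptions. On the right arm, distance from the centromere and log2 ratio were therefore almost unrelated in rank, with a ratio of 2.84 at 28.1 kb and 0.14 at 727 kb.

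**Figure D3:**
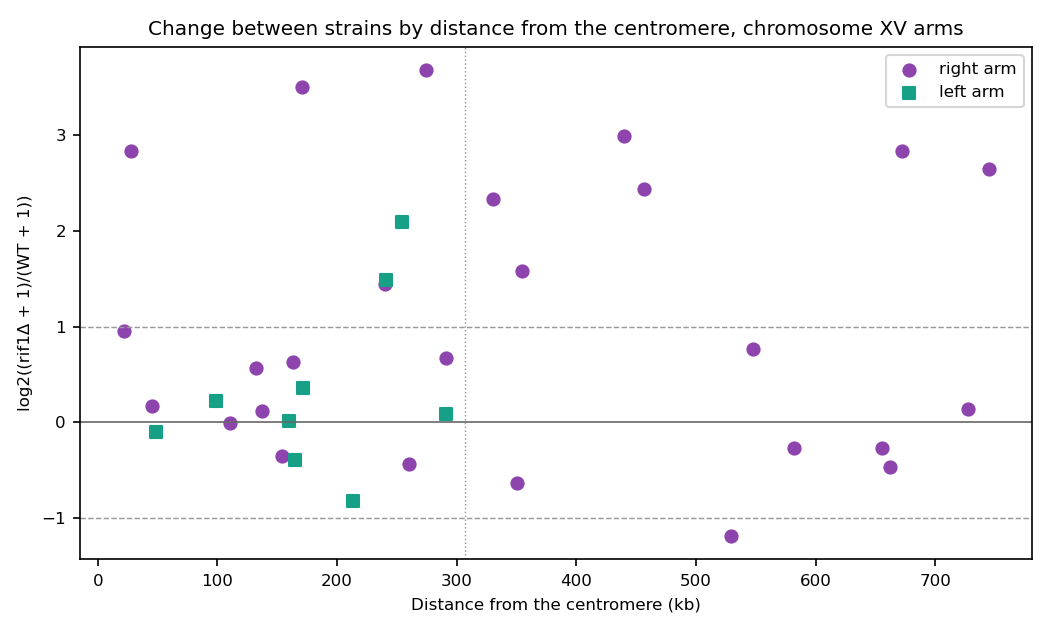
Log2 ratio of *rif1Δ* over *WT* signal (vertical axis) against distance from the centromere (kb) for the 26 right-arm peaks (circles) and the 9 left-arm peaks (squares) of chromosome XV; dashed lines mark 1 and -1 and the dotted line the end of the left arm at 306.6 kb. The 10 right-arm peaks above 1 are spread from 28.1 to 745 kb, and the 2 left-arm peaks above 1 lie at 241 and 254 kb.

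Beyond the matched distance, 46.2% of right-arm peaks were *rif1Δ*-only, and the share was 46.7% of the 107 peaks at these distances on the other chromosomes. Within the matched distance it was 30.8% on the right arm, 0 of 9 on the left, and 29.3% of 198 on the other chromosomes. Among the 22 arms with at least 5 peaks, the right arm ranked 9 and the left arm 14 by median log2 ratio. By share of *rif1Δ*-only peaks the right arm ranked 7, level with the left arm of chromosome VII, and the left arm 21, level with the left arm of chromosome XIII, which also had none. The share of *rif1Δ*-only peaks on the right arm was thus near that of the other chromosomes at both distances. The share with a log2 ratio above 1 was 30.8% on the matched right arm against 35.4% on the other chromosomes. Beyond the matched distance it was 46.2% against 52.3%. The median log2 ratio differed more in value. It was 0.63 on the matched right arm against 0.19 on the other chromosomes at those distances, and 0.77 beyond, against 1.22 on the other chromosomes. These right-arm medians rest on 13 peaks each, and those of the other chromosomes were not recomputed under the alternative settings.

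Shares of the arm signal are ratios within a strain and so do not depend on the scaling between strains. The right arm held 63.0% of the arm signal in *rif1Δ* and 58.1% in *WT* cells, and the left arm, with 28.3% of the bins, held 37.0% in *rif1Δ* and 41.9% in *WT* cells. The part of the right arm beyond 306.6 kb, with 43.3% of the bins, held 32.4% in *rif1Δ* and 30.1% in *WT* cells. Per bin, the mean signal was 10.4 on the right arm and 15.5 on the left arm in *rif1Δ* cells, against 9.38 on the right and 17.1 on the left in *WT* cells. Between 400 and 500 kb on the right arm, the step of ARS1523 and ARS1524, the share was 6.33% in *rif1Δ* and 3.06% in *WT* cells, and no bin reached 20 in *WT* cells, against 5.50% of bins in *rif1Δ* cells. Between 500 and 600 kb, the step of ARS1525, ARS1526 and ARS1528, the share was 6.31% in *rif1Δ* and 7.73% in *WT* cells. The distance from the centromere within which 50% of the right-arm signal lay was 328 kb in *rif1Δ* and 339 kb in *WT* cells, and on the left arm 149 kb in *rif1Δ* and 153 kb in *WT* cells. The distance that holds 50% of the signal of an arm was thus similar in both strains. The right arm nevertheless had 24 peaks in *rif1Δ* and 16 in *WT* cells. Such a distance does not show how the signal fell within single steps, which differed between strains. On the left arm, the step from 120 to 220 kb held 10.8% of the signal of both arms in *rif1Δ* and 15.2% in *WT* cells. The left-arm step from 220 to 306.6 kb held 8.42% in *rif1Δ* and 6.61% in *WT* cells. The median spacing of peaks on the right arm was 17.4 kb in *rif1Δ* and 30.7 kb in *WT* cells, while on the left arm it was 36.75 kb in *rif1Δ* and 32.5 kb in *WT* cells.

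Peaks were narrower in *rif1Δ* than in *WT* cells. Among the 22 peaks present in both strains, the width at 50% of the height was smaller in *rif1Δ* cells at 21 and larger at 1, with a median of 1550 bp in *rif1Δ* and 2150 bp in *WT* cells. On the other chromosomes 143 of 162 such peaks (88.3%) were narrower in *rif1Δ* cells, so that the narrower tracts were also seen there. Widths were 2000 bp in *rif1Δ* and 2100 bp in *WT* cells at ARS1511 and 1850 bp in *rif1Δ* and 1950 bp in *WT* cells at ARS1529.5, both high peaks, but 1700 bp in *rif1Δ* and 2350 bp in *WT* cells at ARS1510. At the low peak at 372025 they were 2050 bp in *rif1Δ* and 2200 bp in *WT* cells. At ARS1508 the width was 1100 bp in *rif1Δ* and 2200 bp in *WT* cells, and at ARS1509.5 1900 bp in *rif1Δ* and 4000 bp in *WT* cells. Widths were measured from a signal of 0, so the signal between peaks widens low peaks, and smoothing sets a lower limit on all of them. The exception was the unlisted peak by *WHI5*, with 1500 bp in *rif1Δ* and 1350 bp in *WT* cells. At 4 kb from the summit of ARS1511 on the centromere side the signal was 13.2 in *rif1Δ* and 24.2 in *WT* cells, and on the telomere side 7.38 in *rif1Δ* and 20.4 in *WT* cells. The 10 *rif1Δ*-only peaks had a median width of 1625 bp, with a range from 950 to 2500 bp.

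**Figure D4:**
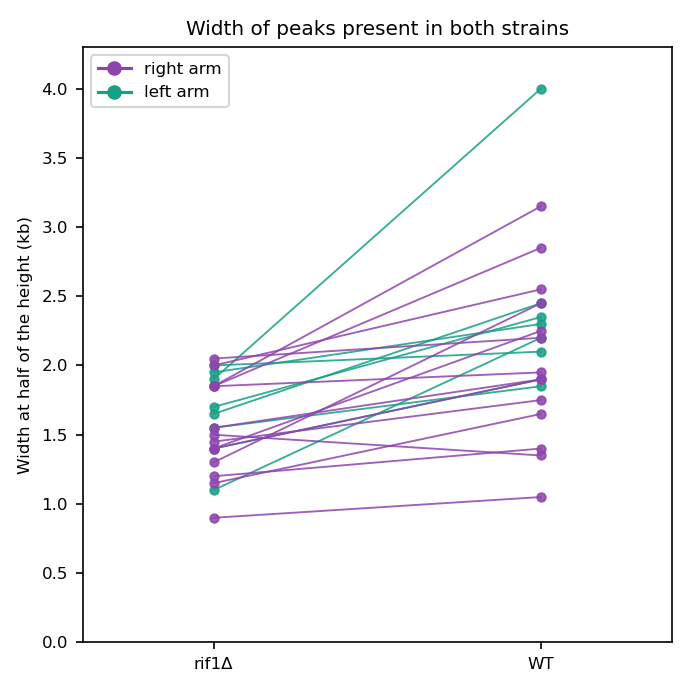
Width at 50% of the height (vertical axis, kb) of the 22 peaks present in both strains, with *rif1Δ* at the left and *WT* at the right of each line, one line per peak, coloured by arm. Lines run upward to *WT* at 21 of the 22 peaks, and widths range from 900 to 2050 bp in *rif1Δ* and from 1050 to 4000 bp in *WT* cells.

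Of the 35 peaks, 28 matched an origin of the study's list (summit within 1 kb of the listed interval) and 7 (20%) did not, against 17.9% unlisted over all nuclear arms. Heights of the 7 ranged from 18.6 to 32.6 in *rif1Δ* and from 2.75 to 42.9 in *WT* cells, and 5 of them were lower in *rif1Δ* than in *WT* cells, while 22 of the 28 listed peaks were higher. Without regard to listing, 24 of the 35 peaks were higher in *rif1Δ* cells, against 194 of 305 on the other chromosomes. Those 305 were not split by listing, so whether the contrast is particular to chromosome XV was not tested. The 3 unlisted peaks present in both strains had a median width of 1150 bp in *rif1Δ* and 1350 bp in *WT* cells, against 1650 bp in *rif1Δ* and 2200 bp in *WT* cells for the 19 listed ones. The listed origins are known origins where these same libraries gave a peak call, and the authors set aside calls at other sites. Listed and unlisted peaks were thus not chosen independently of their signal, and whether the unlisted ones are origins was not tested. Summits lay between genes at 30 peaks and inside a gene at 5. Of the 5, those at YOL085C, *LAS17* and *PUT4* were unlisted, while those at *GAS4* (ARS1507) and *SNF2* (ARS1525) were listed.

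The list holds 35 origins on these arms, of which 7 had no peak of their own. At the midpoint of ARS1521 (729739 to 729969) the mean signal was 19.1 in *rif1Δ* and 3.12 in *WT* cells, just under the minimum. At ARS1515.7 (520541 to 521040) it was 6.02 in *rif1Δ* and 13.0 in *WT* cells, and at the unnamed origin from 397773 to 399037 it was 4.89 in *rif1Δ* and 17.4 in *WT* cells, so that these low sites were higher in *WT* cells. The other 4 are unnamed intervals of 3905 to 10001 bp beside a peak named above. That from 1056048 to 1059952, beside ARS1529.5, had 43.5 in *rif1Δ* and 20.6 in *WT* cells at its midpoint. The log2 ratio there was 1.05, against 0.14 at ARS1529.5, while the highest bin of the interval was 53.6 in *rif1Δ* and 66.4 in *WT* cells. Whether this signal belongs to ARS1529.5 or to an origin of its own was not tested. Just outside the limits of the arms, the pericentric peaks ARS1512 and ARS1513 had heights of 124.5 and 310 in *rif1Δ* cells, against 111 and 368 in *WT* cells.

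**Figure D5:**
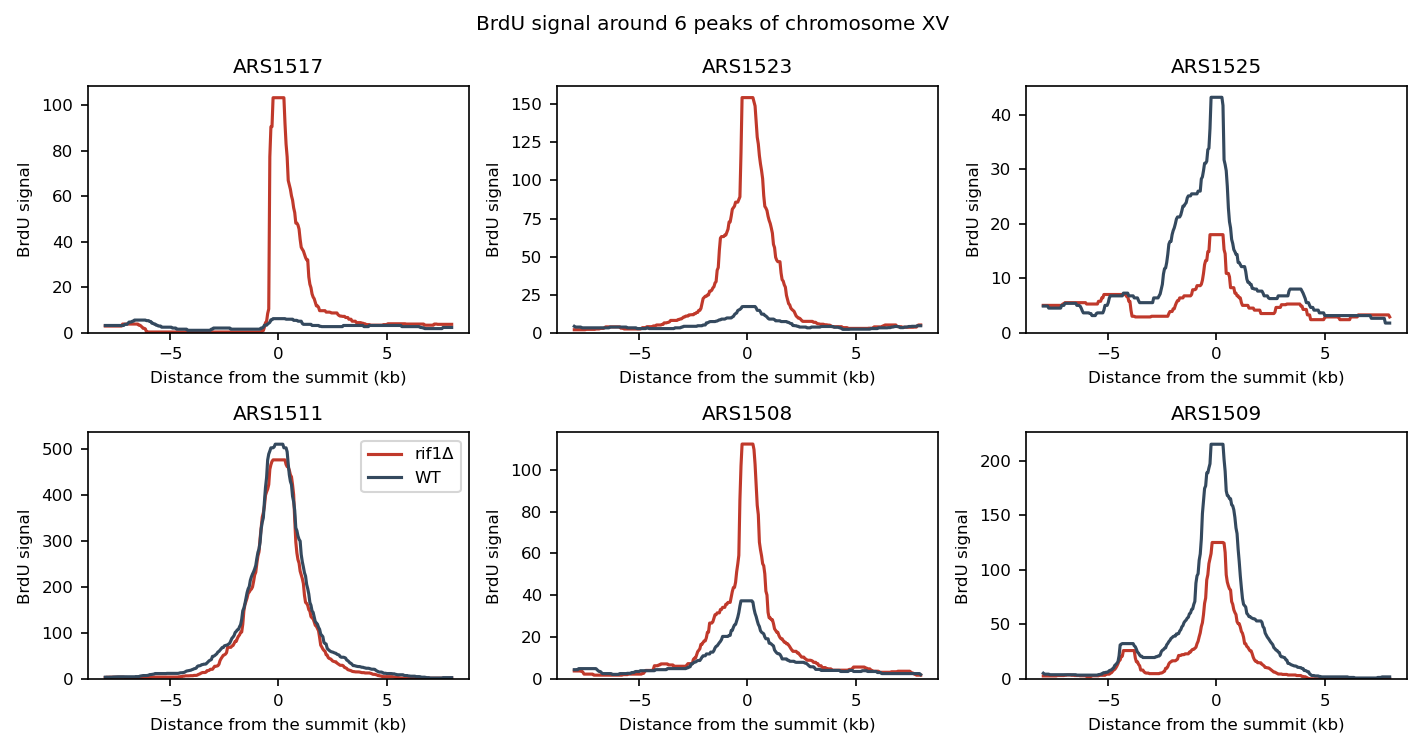
BrdU signal (vertical axis, scale set per panel) against distance from the summit (kb) around 6 peaks, 3 from the right arm (upper row) and 3 from the left (lower row), with *rif1Δ* in red and *WT* in dark blue. ARS1517 rises in *rif1Δ* over a nearly flat *WT* trace. ARS1523 has 154.5 in *rif1Δ* against a low *WT* peak of 17.1, and ARS1508 has 112 in *rif1Δ* against 37.4 in *WT*. ARS1525 and ARS1509 are lower in *rif1Δ*, and ARS1511 overlaps in both. The centromere side of ARS1517, a retrotransposon reading frame, drops to 0.25 within 1 kb in *rif1Δ*.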

How the data were processed

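The authors split barcodes, trimmed reads, aligned them with Bowtie2 to release R64, binned them with bedtools at 50 bp, smoothed the bins by a 1 kb median, applied quantile normalization across replicates, and smoothed the mean of the 2 replicates of each strain once more. The deposited values are this averaged signal, 1 column per strain, and any scaling between the strains is not given in the sources used here. The mean over all bins was 14.67 in *rif1Δ* and 14.66 in *WT* cells, while over nuclear bins it was 12.1 in *rif1Δ* and 12.6 in *WT* cells. Small differences between strains depend on which of these is held equal. Smoothing lowers and flattens narrow peaks, and shared normalization ties the distributions of replicates together, so no replicate error or depth can be had. The strains descend from W303, and positions are those of the reference release.

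Summits were found with scipy 1.17.1 on the higher of both strains in each bin (height of at least 20, at least 2 kb apart, prominence of at least 50% of the height), and the ratio used a pseudocount of 1. The finding of peaks was tested on simulated data. The simulated peaks were set higher than the lowest peaks here and farther apart than the closest ones, so such cases were not tested. Peaks were named by the study's origin list, of which only names and intervals were used, with an interval widened by 1 kb, and genes came from the RefSeq R64 table. Every peak on the arms is described, those with no listed name by position. The members and measures were chosen with earlier results of these data known. Python 3.11.15, numpy 2.4.6, pandas 2.3.3 and matplotlib 3.10.9 were used. No genome sequence was used here.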

Additional observations from a re-analysis of the deposited data

How the results depend on the processing

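Values count as moved where a log2 ratio changed by over 0.25, a share by over 5 percentage points, or a count or width by over 1.5 times. Of 126 values under the alternatives, 99 did not move, 24 moved and 3 changed sign. With a height minimum of 10 there were 6 *WT*-only peaks. With 40 there were 23 peaks, 13 in both strains, 2 *rif1Δ*-only on the left arm and 6 with a log2 ratio above 1. On the mean of both strains, 5 peaks were *rif1Δ*-only. Only listed peaks, chosen after seeing the data, left 1 *WT*-only peak. Peaks with a log2 ratio below -1 numbered 2 with a window of 2500 bp, 0 with a pseudocount of 10, 2 at listed midpoints and 2 with a minimum of 10.

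The median log2 ratio over the peaks was 0.0666 with a window of 2500 bp and 0.62 with equal nuclear mean signal. That scaling brought 2 more *rif1Δ*-only peaks over the minimum (37 peaks, 12 *rif1Δ*-only), both of which enter the medians. With a window of 2500 bp the left-arm median changed sign to -0.11, and the medians were 0.35 on the matched right arm and 0.36 beyond it. A minimum of 10 gave 0.37 on the matched right arm, 0.28 above the left. The median beyond the matched distance changed sign to -0.063 with a minimum of 40, 0.15 below the left (-0.15), and was 1.63 with equal nuclear mean signal, 1.49 above the left. The matched right arm stayed above the left by 0.28 to 0.58.

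With the nuclear median subtracted, the left-arm share in *WT* cells was 47.0%. Without 40 kb at the ends, which drops ARS1529.5, the share beyond the matched distance was 25.4% in *rif1Δ* and 23.2% in *WT* cells. At 25% of the height, median widths were 2725 bp in *rif1Δ* and 3475 bp in *WT* cells. The causes of the other changes were not tested. No paired analysis was possible because each strain has 1 averaged column, which also prevents omitting a replicate.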
